A study of Mus musculus with 6 samples.

Results

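The 10 genes described here encode the glucose transporters and the enzymes of the first steps of glycolysis that were followed through erythroid differentiation of MEL cells, namely Slc2a1, Slc2a3, Hk1, Hk2, Gpi1, Pfkl, Pfkm, Pfkp, Aldoa and Aldoc. They are 10 of the 23896 genes that carry a symbol in the count files, and all 10 were among the 18351 transcripts tested. Each gene is represented by its RefSeq transcript with the highest mean count over the libraries, so the transcripts were selected on their mean count in these libraries, and the genes themselves were chosen by pathway with their changes in these data known. Counts of members that changed are therefore descriptions of this set.

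MEL cells are a mouse erythroleukemia line held at an early erythroid stage, and treatment with DMSO, here at 2%, induces them to differentiate toward red cells. mRNA-seq libraries were made from 2 biological replicates at each of 3 time points, before induction (day 0) and after 2 and 4 days of growth with DMSO, which gives 6 libraries. The only agent that differs between the days is DMSO, and no culture kept without DMSO for 2 or 4 days was analysed here, so time in culture and DMSO cannot be told apart. The line is leukemic and, like any transformed line, was growing continuously at day 0. The libraries held between 35294930 and 53899476 counts on transcripts.

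Glucose enters red cell precursors through facilitative transporters of the Slc2a (GLUT) family and is trapped by hexokinase as glucose 6-phosphate. Glucose-6-phosphate isomerase turns this into fructose 6-phosphate, phosphofructokinase adds a further phosphate in the main regulated step of the pathway, and aldolase splits the product into triose phosphates. Glycolysis is the source of ATP in the mature red cell, which has no mitochondria, and several of its steps are carried out by isoenzymes whose proportions differ between tissues.

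The label of the cells was checked against marker genes. Of 10 erythroid markers, 9 rose and 1 (Klf1, an erythroid transcription factor) fell from day 0 to day 4, and their summed level went from between 1388 and 1518 CPM (library-scaled counts on transcripts, scaled by TMM factors) at day 0 to between 18009 and 20197 at day 4. Of 5 megakaryocyte markers, 3 rose and 2 fell, and their sum went from between 269 and 272 CPM to between 557 and 630 CPM, nearly all of it from Itga2b. Summed macrophage markers lay between 6.45 and 6.72 CPM at day 0 and between 2.45 and 2.94 CPM at day 4, and fibroblast markers between 7.23 and 8.30 CPM and between 2.08 and 2.50 CPM. Mast cell markers summed to at most 3.79 CPM and T and B cell markers to at most 1.38 CPM in any library, while Tpsb2, Col3a1 and Dcn had 0 counts in every library, which allows up to 3 counts in each. The part of the megakaryocyte markers in the results that follow was not tested.

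Most of the set fell by day 2 and then stayed near the new level. From day 0 to day 2, 8 of the 10 members were lower and 0 were higher by edgeR's quasi-likelihood test (adjusted p below 0.05 over all transcripts), beside 31.6% of all tested transcripts called lower and 31.9% called higher. Their median log2 fold change was -1.30, against 0.02 over all transcripts. From day 2 to day 4, 2 members were lower and 0 higher, beside 16.4% of all transcripts called lower and 14.6% called higher, and the median over members was -0.10. The count of that second interval is near the share over all transcripts. From day 0 to day 4, 8 members were lower and 0 higher, beside 36.1% of all transcripts called lower and 36.2% called higher, with a median of -1.35, and 7 of the 8 had changed by at least 1 on the log2 scale. The 2 members not called at any step were Pfkm and Aldoc. Levels are relative to the other transcripts of a library, and in cultures measured in bulk, fewer cells of a type and less RNA per cell cannot be told apart.

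**Figure D1:**
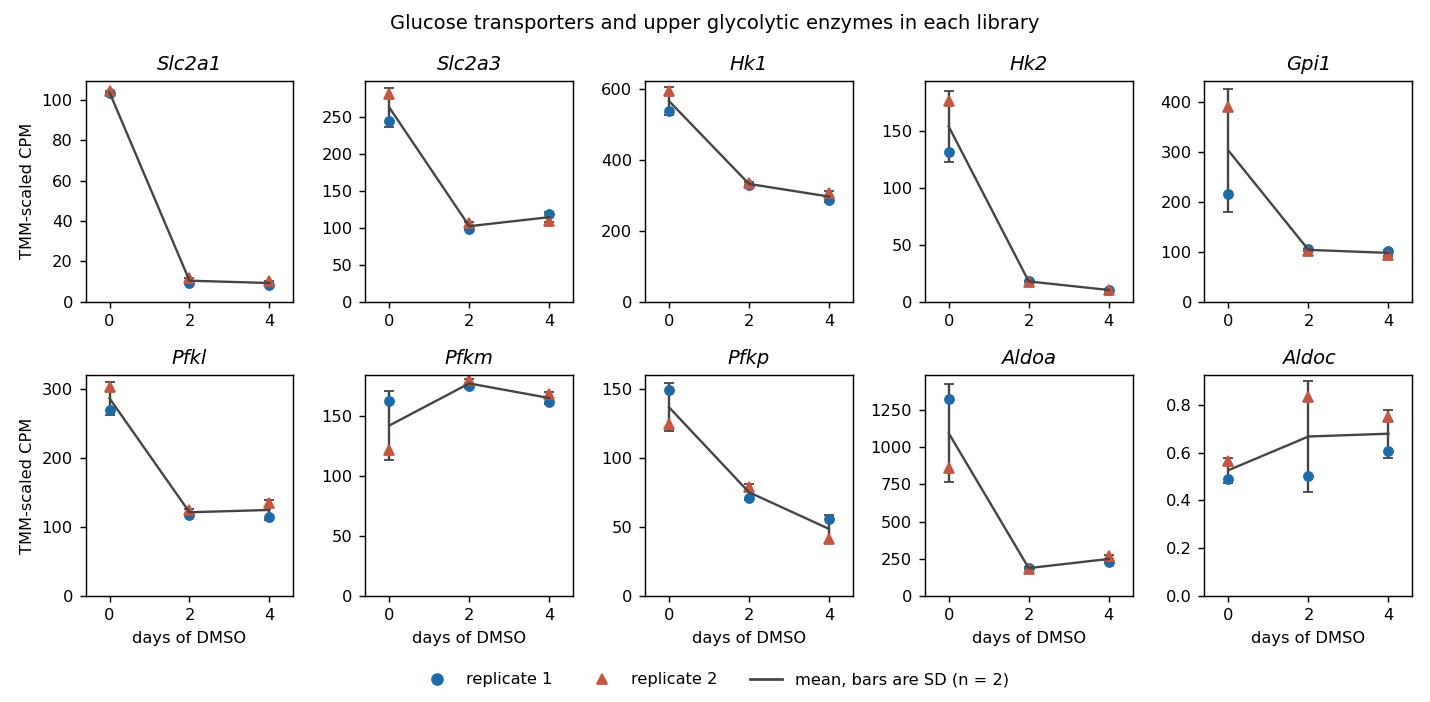
TMM-scaled CPM (vertical axis, separate linear scale for each gene, starting at 0) of the 10 members against days of DMSO, with each library as a point and the mean with its SD (n = 2) as a line with bars. The levels of 8 members are lower in both day 2 libraries than in either day 0 library, Pfkm sits between 122 and 180 CPM throughout, and Aldoc stays below 1 CPM.

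**Figure D2:**
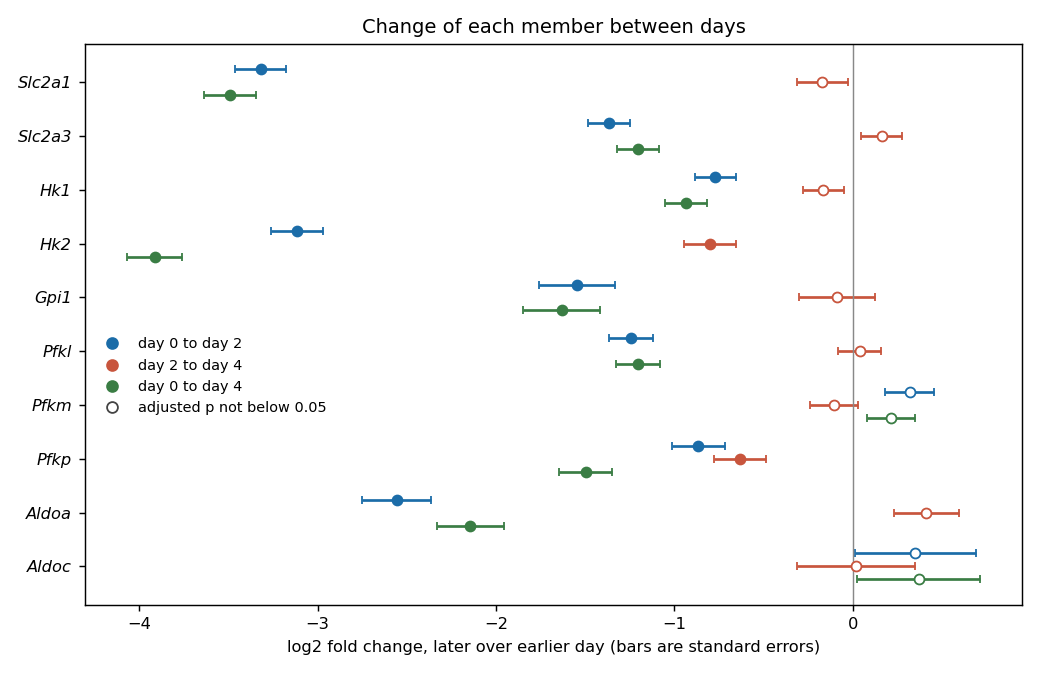
Log2 fold change of each member between days (horizontal axis, bars are standard errors), in blue from day 0 to day 2, in red from day 2 to day 4 and in green from day 0 to day 4, filled where the adjusted p of edgeR's test is below 0.05. The steps from day 2 to day 4 lie near 0 for all members except Hk2 at -0.80, Pfkp at -0.63 and Aldoa at 0.41, the last of which is open.

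Promoter sequence was available from RefSeq (build GRCm38.p6) for 9 of the 10 members, as windows of 300 bases that start 250 bases before the annotated transcription start. The sequences of Hk2, Pfkl and Pfkm are shown because Hk2 had the largest fall from day 0 to day 4 and because the order of the phosphofructokinase genes Pfkl, which fell, and Pfkm, which was not called, reversed. Each is the 250 bases before the start site, 5′ to 3′ on the strand of the gene, at chr6:82774455-82774704 on the minus strand for Hk2, chr10:78009808-78010057 on the minus strand for Pfkl and chr15:98092339-98092588 on the plus strand for Pfkm. Capitals mark ACGTG or GCGTG on either strand (the core bound by hypoxia-inducible factors, written CACGT or CACGC on the other strand) in Hk2 and Pfkl. In Pfkm they mark only AGATAA or TGATAA on either strand (letters bound by GATA factors). The core matches in the printed Pfkm bases, 136 and 135 bases before the start, are left in lower case.
Hk2: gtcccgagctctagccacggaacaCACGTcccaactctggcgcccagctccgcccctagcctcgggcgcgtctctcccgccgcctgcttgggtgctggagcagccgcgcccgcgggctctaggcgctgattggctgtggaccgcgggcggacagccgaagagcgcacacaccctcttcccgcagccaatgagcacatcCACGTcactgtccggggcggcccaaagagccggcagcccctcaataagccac
Pfkl: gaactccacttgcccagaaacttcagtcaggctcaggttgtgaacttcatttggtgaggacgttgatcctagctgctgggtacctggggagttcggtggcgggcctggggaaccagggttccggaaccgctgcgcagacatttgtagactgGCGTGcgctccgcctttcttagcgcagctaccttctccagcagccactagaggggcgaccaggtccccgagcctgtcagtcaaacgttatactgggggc
Pfkm: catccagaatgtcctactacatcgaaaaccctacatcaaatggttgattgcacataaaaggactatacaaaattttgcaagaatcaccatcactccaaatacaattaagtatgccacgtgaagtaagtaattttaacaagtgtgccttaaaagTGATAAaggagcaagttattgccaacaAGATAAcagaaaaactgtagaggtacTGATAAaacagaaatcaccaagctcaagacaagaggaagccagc

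The core ACGTG or GCGTG was present in 8 of the 9 windows of the transcripts described here and in 43.8% of all 32851 windows in the table. It occurred 2 times in the Hk2 window, 226 and 52 bases before the start, 1 time in the Pfkl window at 99 bases before it, 2 times in the Slc2a1 window and 5 times in the Hk1 window, and it was not found in the Gpi1 window. Of the 3 matches in the Pfkm window, 2 belong to an E-box CACGTG 136 bases before the start, a motif that contains the core on each strand. The E-box was found in no other member window and in 7.15% of all windows. The letters AGATAA or TGATAA occurred 3 times in the Pfkm window, at 97, 70 and 44 bases before the start, in none of the windows of the other 8 transcripts, and in 18.6% of all windows. GC boxes (GGGCGG on either strand) were present in 6 of the 9 windows, those of Slc2a1, Hk2, Gpi1, Pfkl, Pfkp and Aldoa, and in 35.7% of all windows. The Pfkm window had 36.7% G and C, and the others had between 53.3% and 67.3%. RefSeq gives 4 windows for Pfkm, 2 of which surround the start of NM_001163487 farther downstream and hold 2 and 1 matches to the GATA letters, and the counts of the 3 Pfkm transcripts differed too little (the lowest at 99.99% of the highest) to tell which start was used. Another RefSeq window of Aldoa, at the start of NM_001177308, held 1 match to the GATA letters. The same window held 0 matches to the core and 0 GC boxes. NM_001177308 had 99.5% of the highest Aldoa count, so the start used was not told apart there either. The other Hk1 window, at the start of NM_010438, held 0 matches to the core. NM_010438 had 99.7% of the highest Hk1 count. The other Aldoc window held 3 matches to the core and 1 GC box. The counts of windows with a match therefore rest on the windows chosen. A match is a description of the letters in the window and says nothing of binding.

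Slc2a1 (NM_011400, chr4:119108745-119137330, plus strand, 10 exons) encodes GLUT1, the transporter for basal glucose uptake and the main glucose carrier of the human red cell membrane. Its level was 103 and 104 CPM in the day 0 replicates, 9.27 and 11.5 CPM at day 2, and 8.37 and 10.1 CPM at day 4. Both day 0 libraries lay far above the other 4, while the day 2 and day 4 libraries overlapped. The mean thus went from 104 ± 0.785 CPM to 10.4 ± 1.55 and 9.21 ± 1.19 CPM (SD, n = 2). The log2 fold change was -3.32 ± 0.14 (SE) from day 0 to day 2 (edgeR adjusted p = 8.41e-08), a level 9.99-fold lower, and -3.49 ± 0.15 from day 0 to day 4 (edgeR adjusted p = 1.66e-08). This fall to day 2 ranked 210 among the 18351 transcripts ordered from the largest fall. The step from day 2 to day 4 was -0.17 ± 0.14 and not called (edgeR adjusted p = 0.391).

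Slc2a3 (NM_011401, chr6:122727809-122802363, minus strand) encodes GLUT3, a transporter with high affinity for glucose, best known from neurons. It was measured at 244 and 281 CPM at day 0, 97.9 and 106 CPM at day 2, and 119 and 109 CPM at day 4. The day 0 libraries did not overlap the later ones, and both day 4 libraries lay slightly above both day 2 libraries. The change to day 2 was -1.36 ± 0.12 (SE, edgeR adjusted p = 3.68e-06), that to day 4 was -1.20 ± 0.12 (edgeR adjusted p = 4.07e-06), and the step between them was 0.16 ± 0.12 and not called (edgeR adjusted p = 0.309).

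Because the fall of Slc2a1 was the larger, the make-up of the transporter pair shifted. Per kilobase of transcript, Slc2a3 made up 66.1% and 68.9% of the pair's counts at day 0, 89.7% and 88.4% at day 2, and 92.1% and 90.0% at day 4. Every later library lay above both day 0 libraries, and the mean share rose by 23.5 percentage points from day 0 to day 4. The ratio of Slc2a3 to Slc2a1 per kilobase went from 2.08 ± 0.191 to 8.15 ± 0.768 and 10.3 ± 1.94. Summed per kilobase, both transporters stood at 29.5% of their day 0 level at day 2 and at 32.3% at day 4. Shares and ratios carry no test, since an exact permutation test of 2 libraries against 2 cannot give a two-sided p below 0.333.

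Hk1 (NM_001146100, chr10:62268855-62379920, minus strand), the hexokinase of most tissues and of the red cell, fell least among the called members. Its level was 538 and 595 CPM at day 0, 329 and 336 CPM at day 2, and 286 and 308 CPM at day 4. The 3 days did not overlap, although only the changes from day 0 were called, at -0.77 ± 0.12 (SE) to day 2 (edgeR adjusted p = 0.000191) and -0.93 ± 0.12 to day 4 (edgeR adjusted p = 2.80e-05). The step from day 2 to day 4 was -0.16 ± 0.12 (edgeR adjusted p = 0.307). The other RefSeq transcript of Hk1, NM_010438, had 99.7% of its mean count, so reads on shared exons were counted for each and the erythroid and other forms of Hk1 were not separated.

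Hk2 (NM_013820, chr6:82725025-82774454, minus strand), the inducible hexokinase of muscle, fat and many tumours, showed the largest fall of the set from day 0 to day 4, while Slc2a1 fell more to day 2. Its level was 132 and 176 CPM at day 0, 18.1 and 17.3 CPM at day 2, and 10.6 and 9.81 CPM at day 4. The days followed each other downward with no overlap. The log2 fold change was -3.12 ± 0.15 (SE) to day 2 (edgeR adjusted p = 1.01e-07) and a further -0.80 ± 0.15 from day 2 to day 4 (edgeR adjusted p = 0.00273). Over the whole course it was -3.91 ± 0.15 (edgeR adjusted p = 1.24e-08), or 15.1-fold lower, which ranked 288 of 18351 from the largest fall.

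Of the counts of Hk1 and Hk2 per kilobase, Hk1 made up 84.0% and 81.3% at day 0 and 95.9% and 96.1% at day 2. At day 4 it made up 97.2% and 97.6%, when Hk2 was left with 2.61 ± 0.273% (SD, n = 2). The ratio of Hk1 to Hk2 per kilobase went from 4.81 ± 0.640 to 24.2 ± 1.12 and 37.5 ± 4.03. Hk1 was the more abundant of the pair already at day 0, so the shift was toward the form that prevailed before induction. The summed level of both was 50.5% of that of day 0 at day 2 and 44.4% at day 4.

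Gpi1 (NM_008155, chr7:34201327-34230336, minus strand) encodes glucose-6-phosphate isomerase, for which no isoenzyme was followed. It was at 215 and 389 CPM at day 0, 105 and 102 CPM at day 2, and 102 and 93.5 CPM at day 4. The day 0 replicates lie apart from each other, and both exceed every later library. The change was -1.54 ± 0.21 (SE) to day 2 (edgeR adjusted p = 0.000105) and -1.63 ± 0.22 to day 4 (edgeR adjusted p = 4.16e-05). Without either day 0 library or any other, the first of these lay between -1.91 and -1.06 and the second between -2.00 and -1.16, called throughout. Of the 31-base words in the Gpi1 transcript, 32.1% also occur in transcripts of other genes, so part of its level is uncertain.

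Phosphofructokinase works as a tetramer of liver (Pfkl), muscle (Pfkm) and platelet (Pfkp) subunits, and the red cell enzyme is built from the liver and muscle forms. Pfkl (NM_008826, chr10:77986947-78009807, minus strand) was measured at 270 and 303 CPM at day 0, 117 and 125 CPM at day 2, and 114 and 135 CPM at day 4. The fall was complete by day 2, at -1.24 ± 0.12 (SE, edgeR adjusted p = 8.98e-06), and the change to day 4 was -1.20 ± 0.12 (edgeR adjusted p = 5.70e-06). The later days overlapped, with a step of 0.04 ± 0.12 (edgeR adjusted p = 0.827) whose sign changed under another scaling and without single libraries.

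Pfkp (NM_019703, chr13:6579874-6649060, minus strand) fell over both intervals. It was at 149 and 124 CPM at day 0, 71.0 and 79.0 CPM at day 2, and 55.5 and 41.4 CPM at day 4, with no overlap between days. The steps were -0.86 ± 0.15 (SE, edgeR adjusted p = 0.000413) and -0.63 ± 0.15 (edgeR adjusted p = 0.00897), and the change over 4 days was -1.50 ± 0.15 (edgeR adjusted p = 4.94e-06). The second step lost its call without day 2 replicate 1 (-0.71, edgeR adjusted p = 0.0592), without day 2 replicate 2 (-0.56, edgeR adjusted p = 0.0923) and without day 4 replicate 2 (-0.44, edgeR adjusted p = 0.109), which left Hk2 as the only member called for that interval. Exons of Pfkp share 748 bases with Pitrm1 on the other strand, and whether strand was used in counting is not given in the sources used here, so reads of the overlap may come from either gene. The same holds for 356 bases of Gpi1 (with Gm26762), 157 of Hk1 (with Hk1os), 105 of Slc2a1 (with Gm12868), 25 of Aldoa (with Fam57b) and 18 of Pfkm (with Senp1).

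Pfkm (NM_001163488, chr15:98092589-98132447, plus strand) was not called in any comparison. Its level was 163 and 122 CPM at day 0, 175 and 180 CPM at day 2, and 162 and 169 CPM at day 4. All later libraries except day 4 replicate 1 lay above both day 0 libraries, which themselves differed by more than the other pairs. The change was 0.32 ± 0.14 (SE) to day 2 (edgeR adjusted p = 0.0598) and 0.22 ± 0.14 to day 4 (edgeR adjusted p = 0.172). The value to day 2 was called as higher without day 0 replicate 1 (0.54, edgeR adjusted p = 0.000364), with no filter on low counts (0.33, edgeR adjusted p = 0.0204) and with libraries scaled by total counts (0.52, edgeR adjusted p = 0.00710), a scaling under which the median of all transcripts for this interval is 0.22 in place of 0.02. Without day 0 replicate 1 the value to day 4 was also called (0.44, edgeR adjusted p = 0.00164). Without day 0 replicate 2 the value was 0.12 to day 2 (edgeR adjusted p = 0.344) and 0.01 to day 4 (edgeR adjusted p = 0.941), so the size of any change of Pfkm rests on which day 0 library is used.

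The order of the phosphofructokinase forms thus reversed between Pfkl and Pfkm. Per kilobase, Pfkm made up 34.8% and 28.0% of the family's counts at day 0, 56.1% and 54.9% at day 2, and 56.6% and 56.5% at day 4. Pfkl held 43.5% and 52.6% at day 0 and 30.2% and 34.0% at day 4, and Pfkp went from a mean of 20.5 ± 1.58% to 11.3 ± 2.65% (SD, n = 2). The groups of day 0 and day 4 libraries overlapped for none of the 3 shares, and the mean share of Pfkm rose by 25.2 percentage points. The ratio of Pfkm to Pfkl per kilobase was 0.666 ± 0.190 at day 0, 1.94 ± 0.0447 at day 2 and 1.77 ± 0.153 at day 4, and that of Pfkm to Pfkp went from 1.53 ± 0.118 to 5.15 ± 1.20. The summed level of the 3 genes was 70.9% of that of day 0 at day 2 and 64.7% at day 4, the highest such values among the families. The difference between the changes of Pfkm and Pfkl was not tested beyond these values.

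**Figure D3:**
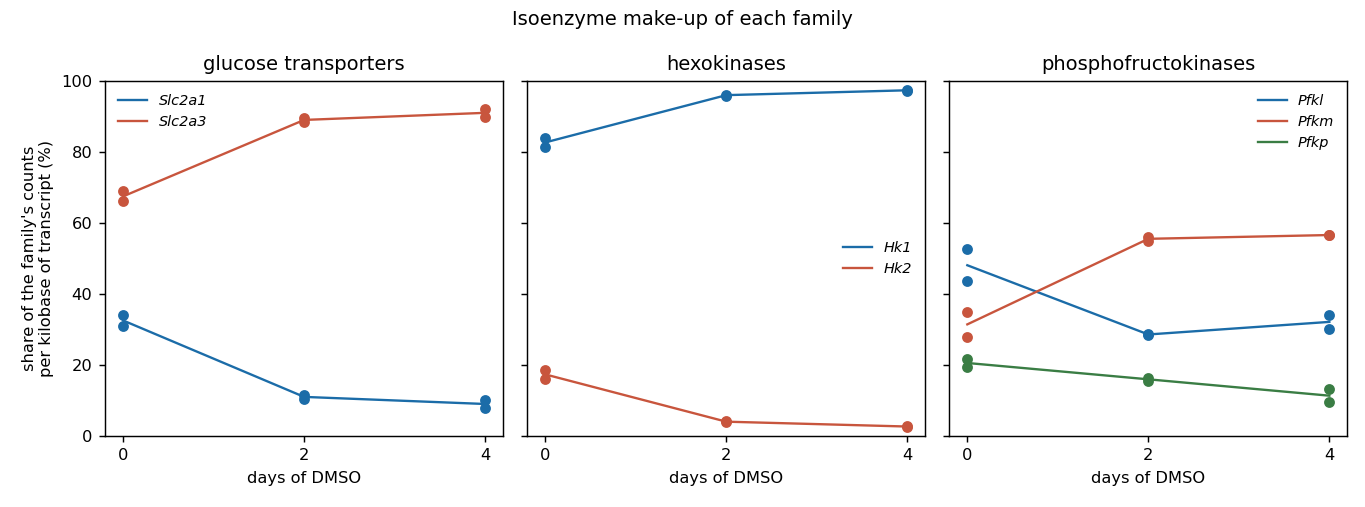
Share of each isoenzyme in the counts per kilobase of transcript of its family (%, vertical axis from 0 to 100) against days of DMSO, for glucose transporters, hexokinases and phosphofructokinases, with each library as a point and lines through the means. A family here holds only the members followed, so other glucose carriers and hexose kinases are not part of the shares. Slc2a3 and Hk1 were in the majority at day 0 and gained share, whereas Pfkm overtook Pfkl between day 0 and day 2.

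Aldoa (NM_001177307, chr7:126795234-126800994, minus strand), the aldolase of muscle and red cells, had the highest level per kilobase of the members on every day. In CPM, which is not divided by length, Hk1 was higher than Aldoa at day 2 and at day 4. Aldoa was at 1329 and 862 CPM at day 0, 190.0 and 182 CPM at day 2, and 228 and 267 CPM at day 4. The day 0 replicates differed from each other, and both were well above any later library. The change was -2.56 ± 0.19 (SE) to day 2 (edgeR adjusted p = 1.50e-06), or 5.89-fold lower, and -2.14 ± 0.19 to day 4 (edgeR adjusted p = 1.96e-06). Both day 4 libraries lay above both day 2 libraries, and the step of 0.41 ± 0.18 was not called (edgeR adjusted p = 0.107). It was called as higher without day 0 replicate 1 (edgeR adjusted p = 0.00334), without day 0 replicate 2 (edgeR adjusted p = 0.00355), with only days 2 and 4 in the fit (edgeR adjusted p = 0.00309) and with no filter on low counts (edgeR adjusted p = 0.0101).

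Of the 31-base words in the Aldoa transcript, 34.2% occur in transcripts of other genes, among them 8 pseudogenes, so part of its level is uncertain. The processed copies Aldoart1 and Aldoart2 had at most 493 and 151 counts in any library, whereas Aldoa had at least 7933. Aldoc (NM_009657, chr11:78323073-78327781, plus strand), the aldolase of brain, was at a very low level with 20 to 41 counts per library, or 0.490 to 0.834 CPM. Its changes of 0.35 ± 0.34 (SE) to day 2 (edgeR adjusted p = 0.384) and 0.37 ± 0.34 to day 4 (edgeR adjusted p = 0.348) were not detectable at this depth. Aldoc made up 0.0466% of aldolase counts per kilobase at day 0 and 0.249% at day 4, and Aldoa held 99.8% of the family at day 4. The summed aldolase level was 17.0% of that of day 0 at day 2 and 22.7% at day 4.

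The order of the members by level per kilobase also changed. At day 0 it ran from Aldoa at 707 ± 213 CPM per kilobase over Hk1 (132), Gpi1 (105), Pfkl (76.8), Slc2a3 (66.3), Pfkm (50.5), Pfkp (33.0), Slc2a1 (31.8) and Hk2 (27.9) to Aldoc (0.310). The replicates overlapped between Hk1 and Gpi1, Gpi1 and Pfkl, Pfkp and Slc2a1, and Slc2a1 and Hk2, so these neighbours did not differ beyond their spread. At day 4 the order was Aldoa at 159.9 ± 17.8, Hk1 (69.3), Pfkm (58.7), Gpi1 (33.8), Pfkl (33.4), Slc2a3 (28.8), Pfkp (11.7), Slc2a1 (2.83), Hk2 (1.85) and Aldoc (0.400), with overlap only between Gpi1 and Pfkl. Pfkm moved from the sixth place to the third, above Gpi1, Pfkl and Slc2a3 at both later days. Summed per kilobase, the 10 members went from 1342 and 1120.2 CPM at day 0 to 378 and 382 CPM at day 2 and 386 and 416 CPM at day 4, and 32.6% of the mean of day 0 remained at day 4.

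The genes most alike in pattern were taken as the 3 genes at the smallest distance from each member over the 6 libraries (log2 CPM centred on the gene's mean), among 8749 genes. For Hk2 these were Ldha (distance 0.239), Tenm4 and Gcat, and for Slc2a1 they were Pgam1 (0.456), Rufy4 and Limd2. The nearest genes to Slc2a3 were Cfl1 (0.0748), Zfp771 and U2af2, and those to Hk1 were Snrnp200 (0.110), Dera and Spout1. Gpi1 was nearest to Mrpl11 (0.146), Ccdc86 and Def6, Pfkl to Lrp8 (0.141), Arhgdia and Hspa5, and Pfkp to Aurka (0.145), Tymp and Top3a. Pfkm lay close to Ndufa2 (0.102), Creg1 and Ptdss1. The nearest genes to Aldoa were Aqp9 (0.519), Pgd and Pop1, and those to Aldoc were Vgll4 (0.326), Klrg2 and Stx6. These distances describe the same 6 libraries and carry no test.

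The genes around this part of the pathway were counted in 4 lists of 53 genes, of which 41 were tested. From day 0 to day 2, 24 were lower, 7 higher and 10 not called, beside 31.6% lower and 31.9% higher over all transcripts. From day 2 to day 4 the counts were 7, 4 and 30, beside 16.4% lower and 14.6% higher over all transcripts. From day 0 to day 4 they were 25, 8 and 8, beside 36.1% lower and 36.2% higher over all transcripts. Of the enzymes of lower glycolysis and lactate handling, 11 of 13 tested genes were lower from day 0 to day 4, at a list median of -2.56 on the log2 scale beside -1.35 for the members, a difference between lists that was not tested. Ldha (lactate dehydrogenase A) changed by -3.76, Pgam1 by -3.65, Pgk1 by -3.16, Eno1 by -2.56, Pklr (the pyruvate kinase of liver and red cells) by -2.02 and the lactate carrier Slc16a1 by -1.01. All except Pgam1 were called lower at both intervals, but a call in every comparison was itself a rule for naming genes. Of the 13 tested genes of this list, 5 were lower, 0 higher and 8 not called from day 2 to day 4. Bpgm, which makes the bisphosphoglycerate of red cells, was the only gene of this list called higher from day 0 to day 4, by 1.23. It was named after its value was seen.

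Among the other carriers and hexose kinases, 7 of 16 genes were tested, and 3 rose and 3 fell from day 0 to day 4, beside 36.2% of all transcripts called higher and 36.1% called lower. Slc2a8, a transporter of inner membranes, went from 9.21 ± 1.32 to 22.2 ± 0.965 CPM (SD, n = 2), a change of 1.27. The insulin-regulated transporter Slc2a4 changed by 1.25 at no more than 1.12 CPM in any library. Its libraries overlapped, at 0.392 and 0.242 CPM at day 0 and 0.388 and 1.06 CPM at day 4. Hkdc1, a relative of the hexokinases, changed by -5.25, from 6.45 and 6.93 CPM at day 0 to 0.222 and 0.133 CPM at day 4. The later levels are very low, so the size of this change is uncertain. In the pentose phosphate branch, which starts from glucose 6-phosphate, 6 of 8 genes fell and 1 rose from day 0 to day 4. The shares over all transcripts were 36.1% lower and 36.2% higher. The changes were -2.08 for Pgd, -1.49 for Tkt, -0.85 for Pgls and -0.78 for Taldo1. From day 2 to day 4, 2 of the 8 were higher, Taldo1 among them by 0.40, and 0 were lower. Over all transcripts 14.6% were called higher and 16.4% lower at that interval.

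Of the regulators, 13 of 14 genes were tested. From day 0 to day 4, 5 fell, 3 rose and 5 were not called, beside 36.1% of all transcripts called lower and 36.2% called higher. The count that fell is near the share over all transcripts. Txnip, a protein known to restrain glucose uptake by promoting the removal of GLUT1 from the cell surface, rose at both intervals, from 429 and 384 CPM at day 0 to 2578 and 2475 CPM at day 2 and 4636 and 4840.0 CPM at day 4. Its change over 4 days was 3.54 ± 0.15 (SE, edgeR adjusted p = 1.85e-08). Slc2a1 RNA moved the opposite way in the same libraries, with the whole of its called change at the first interval. Whether the changes of these genes are linked was not tested. Fbp2 (fructose bisphosphatase, which opposes phosphofructokinase) changed by -7.95, from 26.4 and 23.8 CPM at day 0 to at most 0.111 CPM at day 4. Its later levels are very low, so the size of this change is uncertain. Trim46 changed by -1.51.

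**Figure D4:**
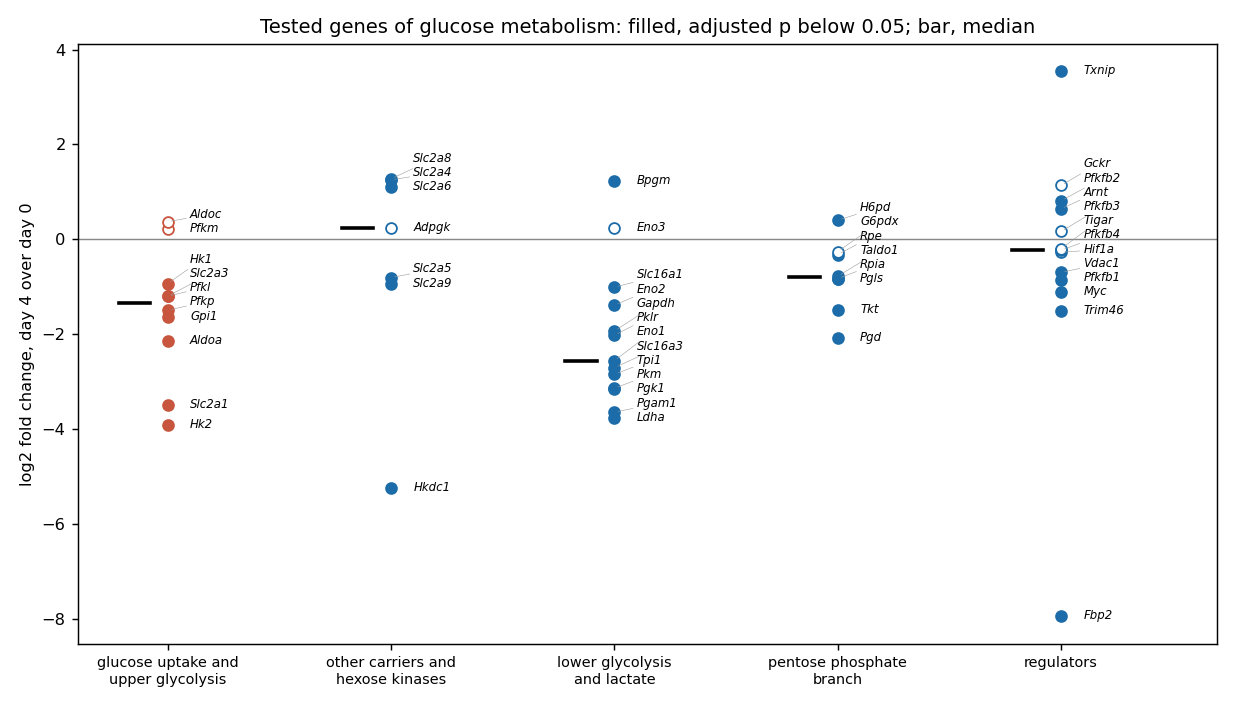
Log2 fold change from day 0 to day 4 (vertical axis) of the members (red) and of the tested genes of the 4 lists (blue), filled where the adjusted p of edgeR's test is below 0.05, with the median of each list as a bar. The medians are -1.35 for the members and -2.56 for lower glycolysis and lactate. Txnip at 3.54 and Fbp2 at -7.95 mark the extremes, and the size for Fbp2 is uncertain because its day 4 level is very low.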

How the data were processed

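mRNA-seq was performed on MEL cells at days 0, 2 and 4 of 2% DMSO, with 2 biological replicates per day, grouped by the day in the sample labels. Per the study's methods and processing notes, the authors made stranded poly(A) libraries, trimmed adapters with cutadapt, aligned reads to mm10 (GRCm38) with TopHat and, by the notes, used HTSeq. The deposited values are raw read counts per RefSeq transcript, with replicates kept apart. The counting settings and the use of strand are not given in the sources used here. Rows that name no transcript (reads on no feature, 50.5% to 58.4% of a library) were left out, and a 45S rRNA row, 3.78% to 4.98% of counts, was kept. Isoforms of a gene that share exons had nearly equal counts, so they cannot be told apart.

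Symbols for 32195 of 32654 transcripts came from a RefSeq table and for 191 from GENCODE M21, and 268 had none. The members and gene lists were chosen with earlier results of these data known. Days were compared with edgeR 4.0.16 in R 4.3.3, using TMM factors (0.921 to 1.07), filterByExpr by day and 1 quasi-likelihood fit of day means to the 6 libraries. Benjamini-Hochberg adjustment covered 18351 transcripts, with 0.05 as the threshold for a call. The SE is the log2 fold change divided by the root of its F statistic. The study itself used DESeq2, which is an alternative here (1.42.0). Levels compared between genes were divided by transcript length. Limits from 0 counts (3 counts) cover counting error only. The fit was run on simulated counts in which few transcripts changed, only to check its median log2 fold changes. That run does not measure error rates in these data, where many more transcripts were called.

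The named genes are all members, pathway genes called in all 3 comparisons or among the 3 largest called changes of their list from day 0 to day 4, and the 3 genes most alike to each member. Alternatives were DESeq2, RLE factors, total counts, no globin transcripts, no low-count filter, fits of only the days compared, a replicate block, a log2 fold change of at least 1, 1 transcript per gene, the transcript with the fewest counts, and leaving out each library, and for shares the coding length or no length.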

Additional observations from a re-analysis of the deposited data

How the results depend on the processing

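The counts of members called from day 0 to day 2 and from day 0 to day 4 stayed at 8 or moved by less than 1.5 times in every alternative tried. The call for the interval from day 2 to day 4 was less stable, since a minimum size of 1 on the log2 scale left 0 members where 2 were called, and leaving out each library gave between 1 and 3, as Pfkp lost its call or Aldoa gained it. No filter on low counts and a fit of only the days compared also gave 3. With the same minimum, the genes called in the pathway lists went from 31 to 19 for day 0 to day 2 and from 11 to 1 for day 2 to day 4, by construction of the limit. Of 450 values of the members' log2 fold changes under alternatives, 432 kept direction and call, 8 gained a call, 3 lost it and 7 changed sign. The changes of sign were all in values that were not called. For Pfkl from day 2 to day 4 (0.04) the value was -0.0451 with total counts, -0.00551 without day 2 replicate 1 and -0.0863 without day 4 replicate 2, in a range of -0.0863 to 0.150 over libraries left out. For Aldoc from day 0 to day 2 (0.35) it was -0.0692 without day 2 replicate 2, in a range of -0.0692 to 0.655, and from day 2 to day 4 (0.02) it was -0.0675 with total counts, -0.287 without day 2 replicate 1 and -0.153 without day 4 replicate 2, in a range of -0.287 to 0.439. The cause was not tested. The shift in isoenzyme shares from day 0 to day 4 depended on the length used. For Slc2a3 it was 20.9 percentage points both with coding length and with no length (23.5 by transcript length), for Hk1 it was 17.9 with either (14.7), and for Aldoc it was 0.256 with coding length (0.203).

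The labels do not say that equal replicate numbers mark a shared culture, and the differences between replicates 1 and 2 correlated by only 0.0316, 0.0451 and 0.0791 between pairs of days over 18351 transcripts. With the replicate number as a block (the replicate block), 8, 2 and 8 members were called in the 3 comparisons, as without it, and 32, 10 and 33 pathway genes. With 2 libraries per day, each transcript has 3 residual degrees of freedom, to which edgeR adds prior ones shared across transcripts, and the p-values measure the spread between these cultures alone, and Aldoc, at 20 to 41 counts, is limited by depth.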
